A study of Arabidopsis thaliana with 27 samples.

Results

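The genes described here had signal in the root tip and in the hair zone, and a dip between them, at the onset of elongation. They were chosen from the array values themselves: a probe set had to be assigned to 1 gene, and its means over the 4 stage I and over the 4 stage III arrays each had to be at least 50 and at least 2 times its mean over the 4 stage II arrays. Of 13513 such non-control probe sets, 67 (0.496%) met this rule, each standing for a different gene. Of the 4143 probe sets that reached 50 at both stages I and III they were 1.62%. The reverse pattern, a peak at stage II under a mirrored rule, was found in 73 probe sets.

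A growing root lays its development out along its length. Cells divide in the meristem behind the tip, which is wrapped by the lateral root cap, then stop dividing and lengthen in the elongation zone. Above it they mature, and epidermal cells form hairs while the endodermis builds its barrier of lignin and suberin. The stage segments do not show in which tissue a signal lay, so the question was which of the marked cell types held these genes.

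RNA of Arabidopsis thaliana roots was measured on 27 ATH1 arrays, with 1 array per sample, and all plants grew on MS medium with 4.5% sucrose in a cycle of 16 h light and 8 h dark. Root segments in the Columbia background gave 12 arrays. Stage I lies where the tip reaches full diameter (about 0.15 mm), stage II where cells turn transparent and start to lengthen (about 0.30 mm), and stage III where hairs are full length (0.45 mm to 2 mm above the tip). The other 15 arrays came from 5 lines carrying a GFP marker, with 3 arrays each. J3411:GFP, in the C24 background, is labelled as lateral root cap with epidermis. SCR:GFP, in Landsberg, is labelled as endodermis and quiescent centre, although its replicate 1 carries no tissue label. WOL:GFP, GL2:GFP and J0571:GFP are Columbia. WOL marks the stele and by its label fades from the elongation zone on, GL2 is labelled for atrichoblasts, hairless cells of the epidermis, and J0571 for cortex, endodermis and quiescent centre. Sorting of cells and separate growth of the replicates are not stated in the labels, and the p-values therefore reflect only how these samples varied. In such bulk RNA, fewer cells of a type and less RNA per cell cannot be told apart.

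Levels are MAS5 signals, linear values that the authors scaled to a common trimmed mean, with a median per array between 27.3 and 43.7. Background was set at a signal of 14.8, below which 95% of the values of 12 bacterial controls that had not been spiked in lay. Defining markers matched the labels of 4 lines in part. In J3411 5 of 6 root cap genes were called higher but only 1 of 5 root hair genes, and in WOL 2 of 2 stele genes were, together with 4 of 5 root hair genes, 2 of 3 endodermis genes and the quiescent centre gene AGL42. In SCR 3 of 3 endodermis genes, 2 of 3 cortex genes and AGL42 were higher, and in J0571 3 of 3 endodermis and 3 of 3 cortex genes were. AGL42 was not called in J0571, although the label of that line names the quiescent centre, and averaged 14.9 there, near the background, against 58.7 in WOL. No atrichoblast marker was measured, so the label of GL2 was not checked in this way. J3411 replicate 3 and SCR replicate 1 stood apart from their groups, with mean correlations to the other arrays of their line of 0.907 and 0.888. Replicates 1 and 2 of each stage, and SCR replicates 2 and 3, formed a class of 8 arrays with low spike-in controls. On the stage arrays the ratio of the 3' to the 5' GAPDH signal, a sign of RNA quality, was 4.34 to 7.85 in the low class and 14.9 to 31.7 in the high class. No list marker of any cell type is among the 67 genes, but the marker lists are short, and only 1.62% of the probe sets at the level floor dip.

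Since the stage means chose the genes, the stage values are a description. Over the 67 genes the median of the stage means was 84.6 at stage I, 27.2 at stage II and 103 at stage III. The depth of the dip, taken as the smaller of the ratios of stage I and of stage III over stage II, had a median of 2.68 and ran up to 7.06. It was 3 or more in 24 genes and 4 or more in 12. The stage II arrays lay below all 8 arrays of stages I and III in 49 of the 67 genes, an ordering that 1.64% of all probe sets showed. They lay below the stage I arrays in 55 genes (14.6% of all probe sets) and below the stage III arrays in 58 (16.5%). In 6 genes the stage II mean fell under the background, so that their ratios rest on values near the detection limit. With the low-class replicates 1 and 2 alone 46 of the genes met the rule, with replicates 3 and 4 alone 57 did, and 37 met it in both pairs. Both ratios stayed above 1 in every one of the 67 genes in each pair. All these counts come from the arrays that chose the genes, and are no independent support for the dip.

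Genes near the limit of the rule were separated by small margins. Just inside were PGM, annotated as a phosphoglycerate mutase and thus of glycolysis, with a smaller ratio of 2.01, AT1G53400 with 2.02 and AT1G19110 with 2.02. Just outside were AT1G56320 with 1.99, AT5G04250 with 1.98 and AT4G36860 with 1.98. PGM had 107 ± 16.03 at stage I, 53.00 ± 9.38 at stage II and 186 ± 56.3 at stage III (SD, n = 4), and AT1G56320 had means of 78.7, 39.5 and 152 in the same order.

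**Figure D1:**
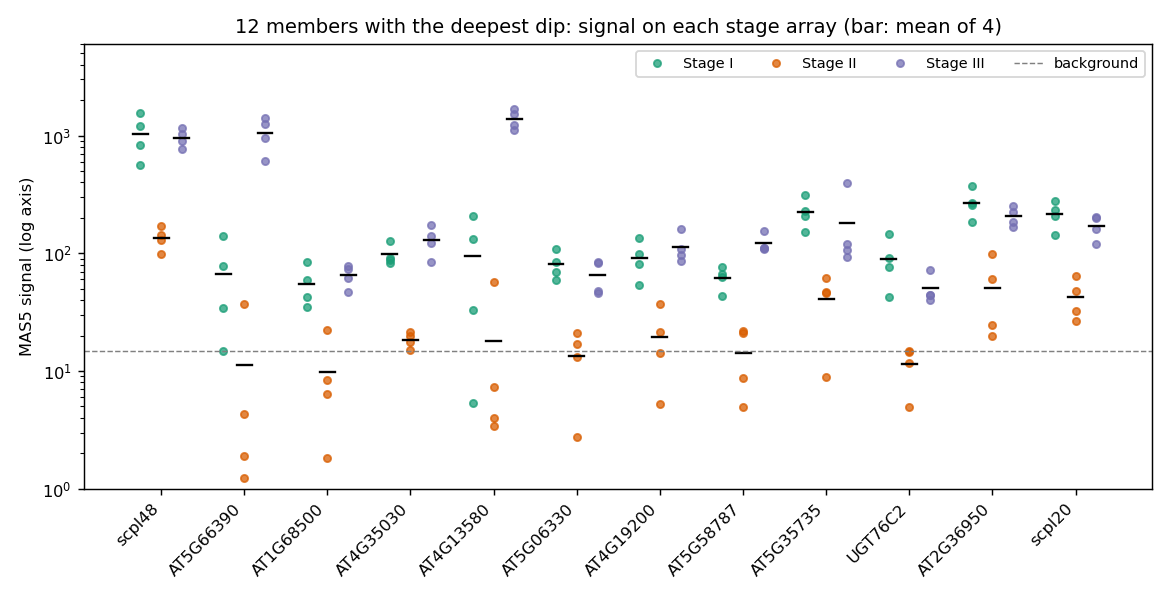
MAS5 signal (log axis) of the 12 genes with the deepest dip, with 1 point for each of the 4 arrays of stages I, II and III, a bar at each mean, and the background of 14.8 as a dashed line. For scpl48 the stage II arrays sit between 99.3 and 172, below every stage I and stage III array, while for AT5G66390 and AT4G13580 stage II replicate 1 lies above the lowest stage I array.

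The deepest dip was that of scpl48, a gene of the serine carboxypeptidase-like family, whose members resemble peptide-cleaving enzymes. Its signal was 567, 1216, 832 and 1542 on the stage I arrays, 172, 144, 129.6 and 99.3 on the stage II arrays and 763, 904, 1151 and 1025 on the stage III arrays. No stage II array came near the others, and stages I and III overlapped. A relative of the same family, scpl20, had 143, 279.8, 232 and 207 at stage I, 47.6, 64.3, 32.2 and 26.4 at stage II and 161, 198, 203 and 121 at stage III. Its groups separated in the same manner, with the stage II mean of 42.6 ± 16.97 above background (SD, n = 4).

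AT5G66390, annotated as PEROXIDASE 72 (PRX72), belongs to the class III peroxidases, which oxidise phenolics in the cell wall. Its signals were 34.1, 78.7, 141 and 14.7 at stage I, 37.3, 1.90, 4.33 and 1.24 at stage II and 1402, 1262, 612 and 955 at stage III. AT4G13580 had 5.31, 133, 207 and 33.3, then 56.98, 3.98, 3.42 and 7.34, then 1229.6, 1673, 1126 and 1529 at stages I, II and III. In both genes stage III stood far above the rest, stage I was low and uneven, and only stage II replicate 1 exceeded background among the stage II arrays. On that array the genes were at 37.3 and 57.0, above the lowest stage I array of each. Their signal thus lay mainly at stage III, and their place among the dipping genes rests on some of the stage I arrays.

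Two-sided dips of more even height were seen in kinase, hormone and unannotated genes. AT4G35030 had 87.8, 128, 83.1 and 91.9 at stage I, 19.7, 17.8, 15.1 and 21.3 at stage II and 85.1, 123, 139.6 and 174 at stage III, so that stage II was both low and tight. UGT76C2, a UDP-glycosyltransferase known to attach glucose to cytokinins, had 42.3, 76.99, 90.4 and 146, then 4.96, 11.8, 14.8 and 14.5, then 44.1, 72.7, 40.2 and 44.1. Its stage II arrays were all between 4.96 and 14.8, at or under the background, and stages I and III overlapped. WNK7, of the WNK family of protein kinases, had 48.3, 63.6, 62.5 and 55.9 at stage I, 21.3, 17.3, 13.1 and 16.5 at stage II and 58.96, 116, 78.5 and 141 at stage III, with no overlap between stage II and the others.

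Further genes of this depth carry only a locus name. AT1G68500 had 58.9, 35.3, 83.6 and 42.5 at stage I, 22.4, 8.43, 6.34 and 1.82 at stage II and 61.6, 47.05, 77.3 and 73.3 at stage III. AT5G06330 had 59.7, 84.5, 109 and 69.96, then 13.2, 16.9, 20.9 and 2.76, then 48.3, 45.7, 82.4 and 84.02. For AT5G58787 the values were 75.9, 43.4, 67.1 and 62.4, then 21.7, 4.92, 8.78 and 21.2, then 111, 109, 111 and 154. In these 3 genes each stage II array lay below each of the other 8 arrays. AT4G19200 had 97.9, 53.9, 134 and 80.5 at stage I, 37.3, 14.2, 5.22 and 21.5 at stage II and 108, 96.5, 86.3 and 159.9 at stage III. AT5G35735 had 230.5, 312, 206 and 153, then 61.8, 46.9, 45.9 and 8.92, then 397, 92.6, 107 and 121. AT2G36950 had 369.6, 183, 266 and 257, then 99.3, 19.7, 60.4 and 24.7, then 183, 249.9, 224 and 168. Here too the stage II arrays lay below the other 8, and AT5G35735 had 1 high stage III array.

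The 2 sides of the dip were of similar height in most genes. The ratio of the stage III over the stage I mean had a median of 1.21, and stage III was higher in 42 of 67. It was 2 or more in 10 genes, among them AT2G38800 (5.09), the metallothionein gene MT1C (3.73) and AT4G33150 (2.66), which encodes the lysine-degrading enzyme LKR/SDH. The ratio was lowest in AT1G73340, at 0.486. MT1C, whose small protein binds metals, showed how uneven arrays of a stage can be: it had 473, 405, 241 and 101 at stage I, 438, 125, 10.1 and 2.78 at stage II and 1891, 1403, 773 and 489 at stage III. Within each stage its 2 low-class arrays were the higher ones, and the part of that class in the dip of MT1C was not tested.

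**Figure D2:**
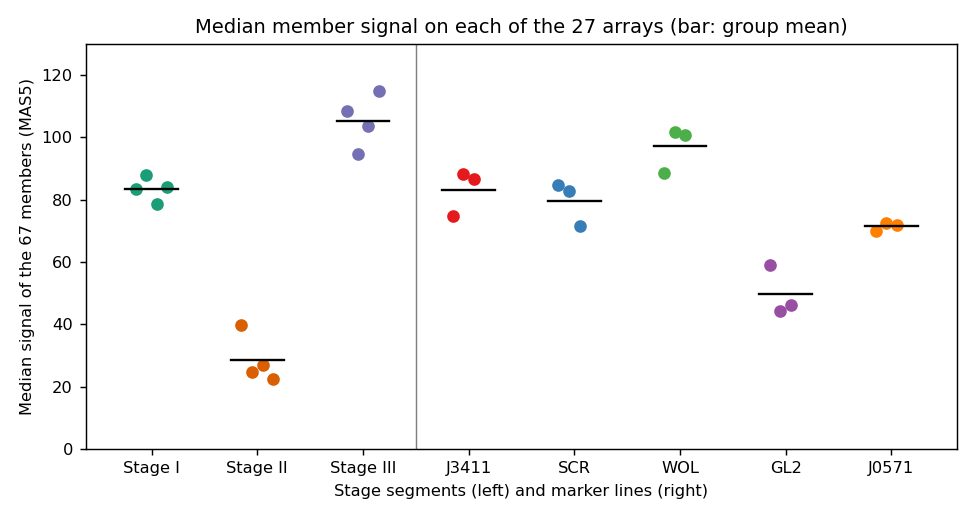
Median MAS5 signal of the 67 genes on each of the 27 arrays, grouped by stage (left) and by marker line (right), with a bar at the mean of each group. The stage II arrays lie between 22.4 and 39.7, and among the lines the GL2 arrays lie lowest, between 44.2 and 58.9.

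Across the marker lines the genes as a group were dimmest in GL2. The median signal of the 67 genes was 74.8 to 88.3 on the J3411 arrays, 71.7 to 84.7 in SCR, 88.7 to 102 in WOL, 44.2 to 58.9 in GL2 and 70.0 to 72.6 in J0571. The GL2 arrays did not overlap with those of any other line. Over all probe sets the median was 31.6 to 32.6 in GL2, 34.6 to 35.7 in J3411 and 27.3 to 40.2 in SCR. It was 37.0 to 43.7 in WOL and 35.0 to 38.9 in J0571. On the stage arrays the median of the 67 genes was 78.7 to 87.8 at stage I, 22.4 to 39.7 at stage II and 94.7 to 115 at stage III. The median over all probe sets was 32.2 to 38.7, 29.1 to 34.8 and 37.0 to 41.6 on the same arrays.

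The line with the highest mean was J3411 in 33 of the 67 genes (49.3%), against 19.1% of all probe sets and 13.8% of the 4076 that passed the same level floor without dipping. SCR was highest in 15 (against 22.6% of all), WOL in 11 (22.1%), J0571 in 7 (18.4%) and GL2 in 1 (17.9%). At the other end GL2 had the lowest mean in 33 genes, against 27.8% of all probe sets, SCR in 15 (26.2%), J0571 in 12 (16.0%), J3411 in 5 (18.2%) and WOL in 2 (11.8%). Among the 73 probe sets that peaked at stage II GL2 was the highest line in 37, against 17.9% of all probe sets, and the lowest in 6. J3411 was highest in 14 of the 73, or 19.2%, near its share of all probe sets, and the line most often lowest among them was WOL, in 24, followed by J3411, in 21. In 13 of the dipping genes the 3 arrays of the highest line lay above all 12 others, as in 9.98% of all probe sets, and in 9 of them the line was J3411 (2.01% of all), in 3 WOL (3.15%) and in 1 SCR (1.98%). For GL2 and J0571 the count was 0, against 2.00% and 0.844% of all probe sets. In 13 genes the 3 arrays of 1 line lay below all 12 others (7.68% of all): in 7 this was GL2 (2.40%), in 3 SCR (3.13%), in 2 J0571 (0.681%), in 1 J3411 (0.875%) and in 0 WOL (0.589%).

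**Figure D3:**
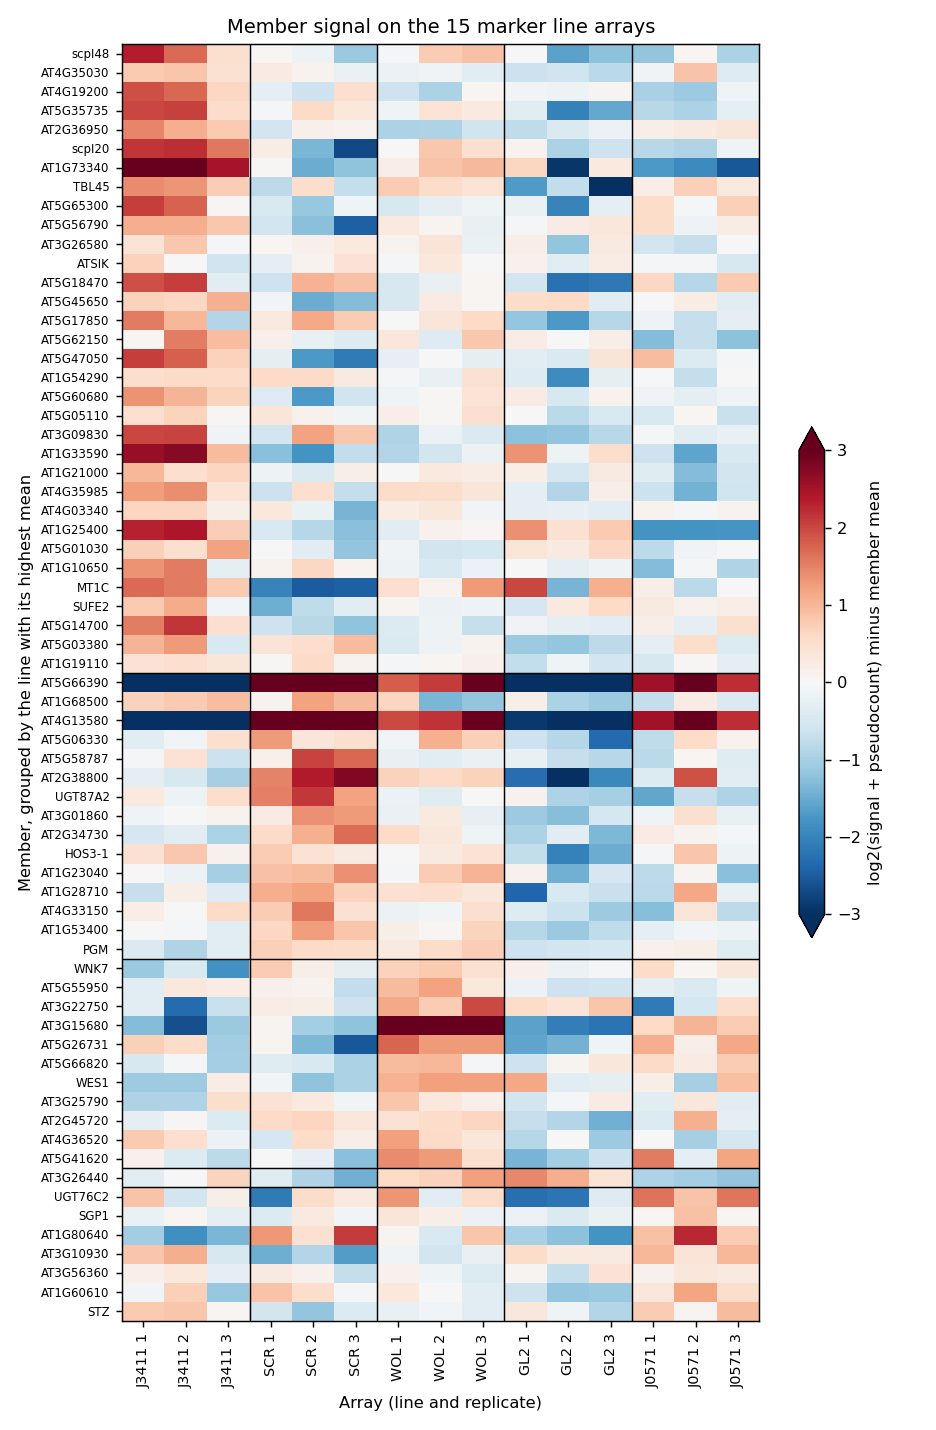
Signal of the 67 genes (rows) on the 15 marker line arrays (columns), as log2 of signal plus pseudocount minus the mean of each gene, with colour limits of 3 either way and rows grouped by the line with the highest mean. The J3411 block of 33 genes is the largest, and its replicate 3 is paler than replicates 1 and 2, while most rows are pale or blue in GL2.

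These placings were tested in the lines, which the rule had not used. A linear model was fitted with limma to log2 of signal plus 2.37 for all 22746 non-control probe sets, each line was set against the other 4 averaged, and p-values were adjusted over all probe sets, with calls at 0.05. The 5 comparisons share their arrays, so a high value in 1 line lowers the others. Of the 67 genes 56 were called in at least 1 line, against 31.2% of all probe sets, and 40 were called higher in at least 1.

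J3411, the root cap and epidermis line, held more of the genes than any other line. In it 22 of 67 genes were called higher, where 5.02% of all probe sets were, and 6 lower, where 5.28% were. The median difference of the 67 genes was 0.54 on the log2 scale, against -0.01 over all probe sets. The serine carboxypeptidase-like genes were among those higher. On the 3 J3411 arrays scpl20 had 327, 342 and 221, against 84.1, 26.2 and 8.99 in SCR, 72.8, 127 and 101 in WOL, 77.4, 36.00 and 46.3 in GL2 and 39.3, 37.3 and 65.8 in J0571. Every J3411 array lay above the other 12, and the log2 difference was 2.48 (SE 0.42, adjusted p = 0.00117). For scpl48 the values were 1682, 1061 and 455 in J3411, against 336, 296 and 149.7 in SCR, 314, 561 and 606 in WOL, 333, 106 and 139 in GL2 and 144, 339.96 and 167 in J0571. J3411 replicate 3 overlapped with WOL, and the call (log2 difference 1.88, SE 0.40, adjusted p = 0.00595) was lost without J3411 replicate 1.

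AT1G73340 had the largest fitted gain in J3411. Its signals were 283, 334 and 188 there, against 33.03, 10.03 and 12.7 in SCR, 37.3, 60.04 and 66.1 in WOL, 51.8, 2.24 and 39.9 in GL2 and 8.14, 6.78 and 3.59 in J0571. J0571 was under background on each array, and the mean was 269 ± 74.01 in J3411, against 27.6 ± 23.3 in the other lines (SD, n = 3 and n = 12, limma adjusted p = 0.000478). AT1G33590 had 1480.5, 1599 and 461 in J3411, against 99.3, 67.5 and 143 in SCR, 128, 162 and 212 in WOL, 616, 215 and 345 in GL2 and 155, 78.8 and 174 in J0571 (log2 difference 2.62, SE 0.38, adjusted p = 0.000311). GL2 was second here and overlapped with J3411 replicate 3. AT1G25400 also had GL2 second, with 797, 861 and 266 in J3411, against 114, 86.5 and 64.5 in SCR, 126, 173 and 164 in WOL, 409.7, 218 and 273 in GL2 and 44.3, 43.7 and 44.5 in J0571 (log2 difference 2.29, adjusted p = 0.000128).

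AT5G35735 had 5027, 5166 and 1825 in J3411, against 1193, 1849.6 and 1551 in SCR, 1148, 1657 and 1521 in WOL, 981, 302 and 429 in GL2 and 704, 643 and 1017 in J0571 (log2 difference 1.92, adjusted p = 0.00156). AT5G47050 had 589, 479.6 and 224 in J3411, against 112, 39.7 and 29.8 in SCR, 116, 137 and 113 in WOL, 107, 101 and 180.3 in GL2 and 264, 103 and 131 in J0571 (log2 difference 1.91, adjusted p = 0.00280). In both, J3411 replicates 1 and 2 lay above all arrays of the other lines and replicate 3 did not. AT4G19200 had 970.1, 837 and 386 in J3411, against 205, 162 and 357 in SCR, 162, 129 and 262 in WOL, 236, 224 and 267 in GL2 and 127, 116 and 230.3 in J0571. AT5G14700 had 479.9, 735 and 232 in J3411, against 107, 90.4 and 69.1 in SCR, 122, 147 and 101 in WOL, 153, 137 and 130.1 in GL2 and 189, 136 and 229.7 in J0571. These 2 genes passed in J3411 against each other line taken singly, as 0.602% of all probe sets did, with log2 differences from the mean of the other 4 lines of 1.78 (adjusted p = 0.00106) and 1.74 (adjusted p = 0.000485). Without J3411 replicate 1, or without replicate 2, 0 genes passed against each other line, and without replicate 3, 12 did.

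Root cap markers were highest in J3411, as were the genes called higher there, but matched the dipping genes only in part elsewhere. The summed signal of the 6 root cap genes was 3039 to 6115 on the J3411 arrays, with the lowest sum on replicate 3. In GL2, where the dipping genes were lowest, it was 1192 to 1401, with sks15 alone averaging 1082. It was 570 to 1226 in WOL, 85.3 to 802 in SCR and 187 to 469 in J0571. Along the root it was 1711 to 2902 at stage I, 508 to 712 at stage II and 611 to 668 at stage III. The sum thus had no recovery beyond the range of stage II, but single markers differed. AT4G04460 had means of 138, 84.0 and 132 at stages I, II and III, and AT4G18425 26.9, 42.0 and 323. In sks15, AT4G27400 and AT1G65570 the mean fell to its lowest at stage III, and AT2G14095 had 22.8, 26.4 and 22.5. The ratio of the 3' to the 5' actin signal, another sign of RNA quality, was 0.660 to 1.04 on the J3411 arrays and 0.964 to 1.15 in J0571, against 6.78 to 11.2 in GL2, 6.61 to 6.78 in WOL and 5.14 to 13.8 in SCR, and thus separated J3411 and J0571 from the other lines. The part of root cap RNA and of RNA quality in the J3411 calls, and that of RNA quality in the GL2 calls, was not tested. J3411 is also the only C24 line, so cell type and background cannot be told apart. The 22 calls fell to 11 without J3411 replicate 1 and to 12 without replicate 2, and numbered 26 without replicate 3. Under all alternatives run, 10 of the 22 held: AT1G73340, AT1G33590, scpl20, AT1G25400, AT5G35735, AT5G47050, AT4G19200, AT5G14700, AT2G36950 and AT5G60680.

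The 6 genes lower in J3411 were AT4G13580, AT5G66390, AT3G15680, AT1G80640, WNK7 and PGM. WNK7 had 6.06, 10.9 and 2.81 on the J3411 arrays, all under background, against 28.4, 18.2 and 12.5 in SCR, 26.9, 28.8 and 22.5 in WOL, 17.8, 13.7 and 15.4 in GL2 and 24.2, 16.7 and 20.7 in J0571. All arrays of the other 4 lines lay above J3411 (adjusted p = 0.00756), some of them under background as well, and the call was lost without J3411 replicate 3. AT1G80640 had 21.6, 11.5 and 16.7 in J3411, against 120.5, 66.1 and 208 in SCR, 50.1, 33.7 and 86.3 in WOL, 22.96, 18.7 and 11.98 in GL2 and 88.7, 236 and 80.98 in J0571 (log2 difference -1.77, adjusted p = 0.00587), and was not called without J3411 replicate 2.

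**Figure D4:**
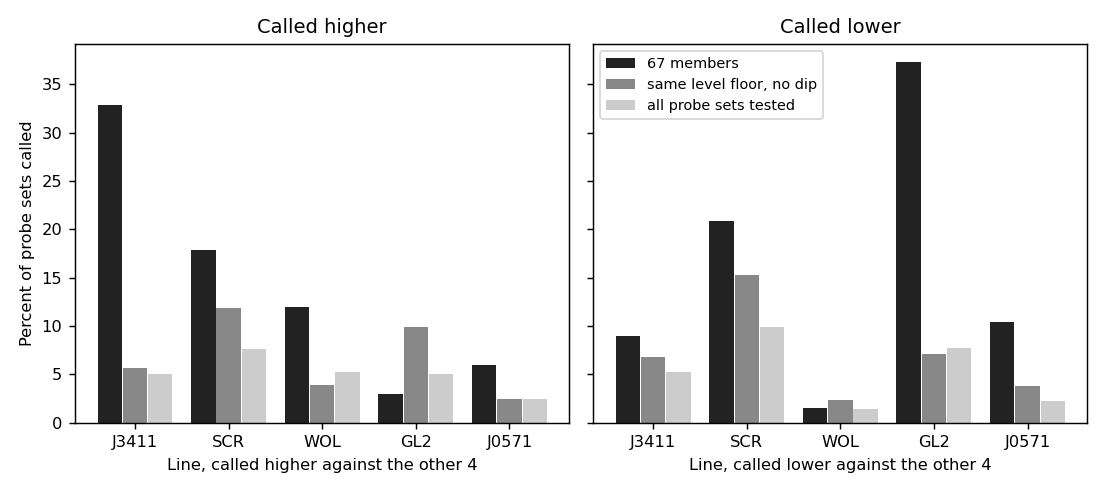
Percent of probe sets called higher (left) and lower (right) in each line against the other 4, for the 67 genes that dip (black), probe sets at the same level floor that do not dip (mid grey) and all probe sets tested (light grey). The genes stand furthest from both other sets in J3411 on the higher side, at 32.8%, and in GL2 on the lower side, at 37.3%.

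GL2, the line of the hairless epidermal cells, was the line in which the genes were low. There 25 of 67 were called lower, where 7.69% of all probe sets were, and 2 higher, where 5.10% were. The median difference of the 67 genes was -0.70 on the log2 scale, against -0.09 over all probe sets, while 9.91% of the probe sets at the same floor without a dip were called higher in GL2. TBL45, of a family that acetylates wall polysaccharides, had 6.47, 14.9 and 1.14 in GL2, against 74.8, 69.8 and 45.7 in J3411, 14.3, 39.3 and 15.3 in SCR, 46.4, 40.2 and 36.1 in WOL and 30.9, 45.2 and 32.8 in J0571. Its difference in GL2 was -2.28 on the log2 scale (SE 0.39, adjusted p = 0.00122), and GL2 replicate 2 overlapped with SCR. HOS3-1, named after a mutant of an ELO-type fatty acid elongase family gene, had 13.6, 4.12 and 7.14 in GL2, against 34.2, 43.99 and 26.5 in J3411, 42.6, 33.7 and 29.8 in SCR, 24.3, 29.8 and 33.5 in WOL and 23.4, 44.6 and 21.6 in J0571. All GL2 arrays were under background and below the other 12. The geometric mean of the other 12 arrays was 2.13 times the background, so that the mean of GL2 was at least 2.13-fold lower (adjusted p = 0.00122).

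AT2G38800 was under background on all GL2 arrays, at 9.19, 1.72 and 12.4, against 44.5, 38.3 and 26.2 in J3411, 158, 294 and 386 in SCR, 88.7, 81.8 and 89.02 in WOL and 40.2, 210.4 and 43.2 in J0571. By the same measure it was at least 5.89-fold lower in GL2 than the geometric mean of the other lines (adjusted p = 0.000145). UGT76C2 was lower in GL2 too, with 1.21, 1.37 and 10.8 there, against 28.5, 9.35 and 17.03 in J3411, 1.60, 22.7 and 18.6 in SCR, 40.8, 11.3 and 22.9 in WOL and 50.9, 28.7 and 49.5 in J0571 (adjusted p = 0.0248). GL2 overlapped with SCR and with J3411 at signals under background. The call was lost without GL2 replicate 1 or 2, and after quantile normalization. The 2 genes higher in GL2 were AT3G26440 and AT1G25400, with log2 differences of 1.23 (adjusted p = 0.00735) and 1.08 (adjusted p = 0.0239), and both calls were lost without GL2 replicate 1, the second also without replicate 3.

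The count of 25 lower genes in GL2 fell to 13 without GL2 replicate 2 and to 13 without replicate 3. After quantile normalization the count was 20. The lower call held in 7 genes under all alternatives run, namely AT5G66390, AT4G13580, AT2G38800, AT3G15680, TBL45, HOS3-1 and AT1G53400. AT1G53400 had 66.1 ± 8.33 in GL2 (SD, n = 3) and 157 ± 62.2 in the other lines (n = 12), with each GL2 array below the other 12 (log2 difference -1.14, adjusted p = 0.000549).

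SCR, the endodermis and quiescent centre line, had genes on both sides. In it 12 of 67 (17.9%) were called higher, where 7.61% of all probe sets were, and 14 (20.9%) lower, where 9.86% were. Probe sets at the same floor without a dip came nearer to these shares, with 11.8% higher and 15.3% lower. Highest by fitted gain were AT5G66390 and AT4G13580, which the 3 inner lines held and the outer 2 did not. The peroxidase gene AT5G66390 had 2779.6, 1946 and 1925 in SCR, against 2.02, 1.34 and 15.2 in J3411, 564, 692 and 1432 in WOL, 7.54, 6.59 and 1.52 in GL2 and 947, 3332 and 755 in J0571. AT4G13580 had 3009, 1911 and 2001 in SCR, against 2.54, 1.81 and 14.02 in J3411, 729, 821 and 1443 in WOL, 22.7, 6.87 and 1.78 in GL2 and 1053, 3346 and 855 in J0571. J3411 and GL2 were at 22.7 or lower on every array, SCR and J0571 overlapped, and WOL overlapped with J0571. AT5G66390 averaged 2217 ± 487 in SCR, against 646 ± 972 in the other lines (SD, n = 3 and n = 12, limma adjusted p = 4.36e-05), and 1678 ± 1436 in J0571, against 781 ± 988 in the others (adjusted p = 0.000219). The call in WOL rests on the log scale, where the very low arrays of J3411 and GL2 pull the average of the other lines down: on the linear scale WOL averaged 896 ± 468, against 977 ± 1219 in the others (adjusted p = 0.00108). AT5G66390 was lower in J3411, with a mean of 6.20 ± 7.83, against 1199 ± 1103 in the other lines (adjusted p = 3.09e-06), and at least 20.4-fold lower in GL2 than the geometric mean of the others, all GL2 arrays being under background (adjusted p = 2.28e-06). AT4G13580 had the same 5 directions on the log scale, and its linear mean in WOL, too, lay below that of the other lines, at 998 ± 389, against 1019 ± 1254. It had adjusted p from 3.74e-06 in J3411 to 0.00146 in WOL, and the 10 calls of the pair held under all alternatives run.

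The endodermis markers GSO1, AT4G11290 and AT2G39430 had the same distribution as this pair. Their summed signal was 4348 to 6893 on the SCR arrays, 2023 to 6552 in J0571 and 906 to 2650 in WOL, against 41.1 to 118 in J3411 and 40.9 to 72.2 in GL2. Along the root it was 49.6 to 153 at stage I, 146 to 667 at stage II and 1551 to 2260 at stage III. The sum thus did not dip, but AT2G39430 alone had means of 58.4, 32.5 and 775 in this order. GSO1, at 32.2, 54.8 and 516, and AT4G11290, at 7.55, 310 and 650, rose from stage to stage. The part of endodermal RNA in the values of AT5G66390 and AT4G13580 was not tested.

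UGT87A2, another UDP-glycosyltransferase gene, was the other call of SCR that held throughout. It had 244, 372 and 196 in SCR, against 103, 75.4 and 121 in J3411, 73.9, 64.9 and 84.3 in WOL, 92.1, 43.4 and 40.7 in GL2 and 27.1, 51.2 and 43.4 in J0571. Each SCR array was above the other 12, the log2 difference was 2.01 (SE 0.27, adjusted p = 0.000235), and SCR also passed against each other line singly. So did AT5G58787, with 72.7, 269.97 and 219 in SCR, against 62.9, 88.3 and 40.98 in J3411, 55.2, 50.6 and 56.02 in WOL, 55.03, 39.4 and 35.6 in GL2 and 36.1, 67.5 and 49.7 in J0571 (adjusted p = 0.00377). These were 2 of 67 genes above each other line in SCR, against 0.475% of all probe sets, and SCR replicate 1 of AT5G58787 overlapped with J3411. Without SCR replicate 2 the count was 0, and without replicate 1 it was 6. AT2G38800, low in GL2 as given above, was higher in SCR by 2.77 on the log2 scale (adjusted p = 0.000999), and AT1G80640 by 1.61 (adjusted p = 0.00888), a call lost without SCR replicate 3.

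MT1C led the genes lower in SCR. It had 98.8, 69.05 and 71.00 in SCR, against 1315, 1177 and 692 in J3411, 566, 433 and 969.7 in WOL, 1607, 152 and 837 in GL2 and 453, 227 and 404 in J0571, so that each SCR array was below the other 12 (log2 difference -2.90, SE 0.48, adjusted p = 0.00113). AT5G56790 had 55.7, 33.7 and 13.5 in SCR, against 183, 182 and 148 in J3411, 103, 89.5 and 71.4 in WOL, 80.9, 101 and 107 in GL2 and 124, 75.9 and 97.9 in J0571 (log2 difference -1.79, adjusted p = 0.000938). AT3G10930 had 83.6, 127 and 71.7 in SCR, against 422, 500.1 and 167 in J3411, 218, 159 and 200.1 in WOL, 344, 291 and 284 in GL2 and 473, 306 and 469 in J0571 (log2 difference -1.68, adjusted p = 0.000986). In both genes the SCR arrays were all below the other 12. STZ, a zinc finger repressor of stress responses also called ZAT10, and SUFE2, an activator of cysteine desulfurase in iron-sulfur assembly, were lower in SCR by smaller amounts, with log2 differences of -0.89 (adjusted p = 0.0322) and -1.06 (adjusted p = 0.0144). Both of these calls were lost without SCR replicate 2, that of SUFE2 also without replicate 1, and that of STZ also without SCR replicate 3, WOL replicate 2, J0571 replicate 1 or J0571 replicate 3.

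SCR alone among the lines has low-class arrays, and most SCR calls were lost in both fits that took the spike-in class into account. In both fits the SCR level rests on replicate 1. The class, the loss of arrays and replicate 1 itself therefore cannot be told apart. With the class as a block 3 genes were called higher and 1 lower, and on high-class arrays alone, where SCR has only replicate 1, 3 and 0. Without SCR replicate 2 the lower count was 5, and without replicate 3 it was 6. SCR is the only Landsberg line, so cell type and background cannot be told apart.

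WOL, the stele line, held fewer genes. In it 8 of 67 were called higher, where 5.27% of all probe sets were, and 1 lower, where 1.38% were. AT3G15680 was the clearest, with 309, 243 and 264 in WOL, against 6.90, 1.32 and 8.18 in J3411, 22.1, 9.04 and 7.49 in SCR, 5.18, 3.11 and 2.57 in GL2 and 32.1, 44.01 and 36.8 in J0571. It was under background on all J3411 and GL2 arrays, passed in WOL against each other line singly (1.05% of all probe sets did) and averaged 272 ± 33.5 there, against 14.9 ± 14.9 in the other lines (SD, n = 3 and n = 12, limma adjusted p = 1.04e-06). Along the root it had 109.8, 116, 124 and 109.7 at stage I, 24.6, 27.2, 22.1 and 16.7 at stage II and 60.6, 46.8, 63.6 and 65.03 at stage III, an even dip with no overlap. The summed signal of the 2 stele markers was 276 to 426 in WOL, against 22.1 to 67.5 in the other lines, and along the root 79.0 to 138 at stage I, 46.9 to 119 at stage II and 631 to 861 at stage III. Their part in the signal of AT3G15680 was not tested.

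WES1, also named GH3.5, encodes an enzyme that joins auxin to amino acids. It had 198, 226 and 226 in WOL, against 44.6, 44.4 and 111 in J3411, 89.6, 40.2 and 47.98 in SCR, 217, 75.98 and 78.2 in GL2 and 110.4, 46.6 and 179 in J0571 (log2 difference 1.45, adjusted p = 0.0370), and GL2 replicate 1 lay within the WOL range. AT5G26731 had 112, 79.98 and 80.3 in WOL, against 53.5, 47.5 and 14.1 in J3411, 33.8, 10.95 and 3.51 in SCR, 9.00, 10.4 and 28.97 in GL2 and 70.03, 36.8 and 73.7 in J0571 (log2 difference 1.79, adjusted p = 0.0367). AT3G26440 had 85.3, 91.8 and 133 in WOL, against 44.2, 55.4 and 88.9 in J3411, 42.9, 28.3 and 19.02 in SCR, 155, 121 and 75.1 in GL2 and 28.2, 26.2 and 23.03 in J0571 (log2 difference 1.05, adjusted p = 0.0298). These 3 calls were each lost without any 1 of the WOL arrays, and in all under 14 alternatives for WES1, 9 for AT5G26731 and 7 for AT3G26440. The count of 8 was 3 without WOL replicate 1 or 2, 4 without WOL replicate 3 or GL2 replicate 2, and 5 without J3411 replicate 2. Those of AT3G15680, AT5G66390 and AT4G13580 held throughout. The 1 gene lower in WOL was AT2G36950, with 601, 616 and 776 there, against 3223, 2507 and 2015 in J3411, 784, 1293 and 1255 in SCR, 689, 867 and 1025 in GL2 and 1322, 1405 and 1504 in J0571 (log2 difference -1.03, adjusted p = 0.00474).

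In J0571, the ground tissue line, 4 of 67 genes were called higher, where 2.44% of all probe sets were, and 7 lower, where 2.25% were. Beside AT5G66390 and AT4G13580 the higher genes were AT1G80640 (log2 difference 1.62, adjusted p = 0.0205) and AT3G10930 (0.99, adjusted p = 0.0497). Without J0571 replicate 1 neither was called. The call of AT3G10930 was lost in 17 of the 26 alternatives run, among them both other pseudocounts, no trend, the replicate number as a block, all 27 arrays in 1 fit and leaving out any 1 array of WOL or GL2. The lower genes included AT1G25400, even at 43.7 to 44.5 on the 3 arrays and below the other 12 (log2 difference -2.23, adjusted p = 0.000313), which held under all alternatives run. AT5G62150 had 16.9, 26.9 and 17.6 in J0571, against 46.5, 135 and 86.6 in J3411, 49.6, 37.8 and 33.6 in SCR, 57.2, 33.9 and 79.8 in WOL and 52.7, 44.2 and 51.3 in GL2 (log2 difference -1.34, adjusted p = 0.0164). AT1G73340, under background on each J0571 array, was at least 2.97-fold lower there than the geometric mean of the other lines (adjusted p = 0.0129), and UGT87A2 differed by -1.31 on the log2 scale (adjusted p = 0.00884). Without J0571 replicate 1, or without replicate 3, 2 of the 7 lower calls were left. In GL2 and in J0571, 0 genes passed against each other line singly, which 0.317% and 0.132% of all probe sets did by the limma fit.

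The 11 genes called in no line were AT1G68500, SGP1, AT3G26580, ATSIK, AT3G56360, AT3G22750, AT5G66820, AT5G05110, AT3G25790, AT4G36520 and AT4G03340. SGP1, a small GTP-binding protein gene, had 142, 169 and 135 in J3411, 122, 197 and 153 in SCR, 210.3, 185 and 144 in WOL, 143, 119 and 141 in GL2 and 169, 302 and 169 in J0571. No line stood apart, with the highest line mean 1.59 times the lowest. Along the root it had 213, 261, 222 and 264 at stage I, 89.2, 49.02, 63.2 and 60.8 at stage II and 352, 474, 550.4 and 611 at stage III, with 3 separate ranges. For ATSIK the highest line mean was 1.26 times the lowest, and over the 67 genes this ratio had a median of 4.18.

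The genes highest in J3411 and those highest in SCR differed in which side of the dip was higher, a difference that is described here without a test. The ratio and its relation to the lines were not worked out over all probe sets. Whether the difference is particular to the dipping genes is therefore not known. In the 33 genes highest in J3411 the ratio of stage III over stage I had a median of 0.94, and stage III was higher in 15. In the 15 highest in SCR the median was 1.74 with stage III higher in 12, and in the 11 highest in WOL it was 1.53 with stage III higher in 8. In the 7 highest in J0571 it was 1.16 with stage III higher in 6, and the 1 gene highest in GL2 had 2.00. Across the 67 genes, which are not independent replicates, the log2 ratio of stage III over stage I had a Pearson r of -0.66 and a Spearman rho of -0.42 with the log2 difference of J3411 from the other lines. Without AT5G66390 and AT4G13580 (n = 65) r was -0.33 and rho -0.37, so the size of r rests in large part on these 2 genes. Without the pair, r was 0.31 and rho 0.30 for SCR, 0.02 and 0.16 for WOL, 0.01 and 0.07 for GL2 and 0.02 and -0.03 for J0571.

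**Figure D5:**
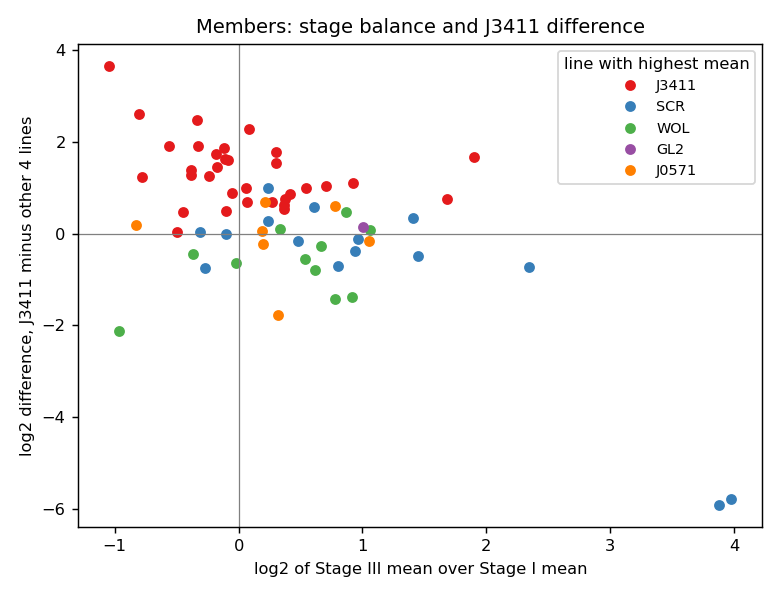
Log2 ratio of the stage III over the stage I mean (x axis) and log2 difference of J3411 from the mean of the other 4 lines (y axis) for the 67 genes, coloured by the line with the highest mean. The 2 points at the lower right are AT5G66390 and AT4G13580, and the genes highest in J3411 lie at and to the left of the centre more often than those highest in SCR.

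Line and stage arrays differed in overall level for some of the genes. In 4 genes, AT2G36950, AT5G65300, STZ and AT5G14700, all 15 line arrays lay above all 12 stage arrays, as in 1.01% of all probe sets. STZ had 2503, 2587 and 1526 in J3411, 1000.4, 647 and 1102 in SCR, 1252, 1374 and 1173 in WOL, 1839.9, 1329.6 and 788 in GL2 and 2488, 1558 and 2832 in J0571. Along the root it had only 103, 65.2, 76.7 and 59.6 at stage I, 75.7, 23.2, 28.2 and 16.8 at stage II and 173, 31.3, 71.1 and 76.97 at stage III, and stage II overlapped with both other stages. Higher levels than along the root were also common in J3411. Of the 10 genes whose higher call there held throughout, all but scpl20 and AT1G73340 had every J3411 array above all 12 stage arrays. AT5G35735 averaged 4006 in J3411, against 225 at stage I and 179 at stage III. The share of all probe sets with this ordering was not worked out. In 9 genes, AT1G68500, AT4G35030, WNK7, AT5G55950, HOS3-1, AT5G66820, AT3G25790, AT5G41620 and AT4G03340, the 15 line arrays all lay below the 8 arrays of stages I and III, as in 0.787% of all probe sets. Thus none of the 5 lines held these 9 genes at the level of the stage I and stage III segments. The 3' to 5' GAPDH ratio was 4.34 to 31.7 on the stage arrays and 0.717 to 4.09 on the line arrays, and its part in these level differences was not tested.

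Few of the genes were matched by a list of an annotated family. The lists were matched on gene symbols and synonyms only, and 14 of the 67 genes have a symbol other than the locus. The lists of class III peroxidases and of receptor kinases matched 0 genes on the array, and so missed AT5G66390. How many of the 67 genes share a family is therefore not known. Of 51 UDP-glycosyltransferase genes measured 2 dip, UGT76C2 and UGT87A2, where 0.496% of all probe sets with 1 gene do. Of these 51 genes 17 were higher and 2 lower in SCR, where 7.61% and 9.86% of all probe sets were, and 4 were higher and 10 lower in GL2, where 5.10% and 7.69% were. Their median log2 difference was 0.47 in SCR, against -0.07 over all probe sets. Of 67 protease and cell death genes measured 2 dip, scpl48 and scpl20, and in J3411 8 of the 67 list genes were higher and 6 lower, where 5.02% and 5.28% of all probe sets were, with a median of -0.02, against -0.01 over all probe sets. WES1 is 1 of 12 auxin response genes measured, of which 5 were higher and 0 lower in WOL, where 5.27% and 1.38% of all probe sets were. By chromosome, 18 of the dipping genes lie on chromosome 1, 6 on chromosome 2, 11 on chromosome 3, 10 on chromosome 4 and 22 on chromosome 5, and no pair of them are neighbours in the TAIR10.1 annotation.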

How the data were processed

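RNA of 27 root samples was hybridised to ATH1 arrays, 1 per sample. The authors deposited linear MAS5 signals, an intensity for each probe set, per the submitters' processing notes, and the MAS5 version is not given in the sources used here. On every array the mean trimmed by 2% came to about 100.0, so the authors scaled the arrays alike, and no further scaling was applied. The depth of an array has no read count, and the number of arrays limits the precision.

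Genes were named from the platform annotation, which assigns 1 gene to 13513 of 22746 non-control probe sets. The 64 control probe sets were left out. The members and the gene lists were chosen with earlier results of these data known, so stage values are described without a test and a pattern known from those results is no independent support.

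The 15 line arrays were fitted in limma 3.58.1 under R 4.3.3 with a mean per line and an intensity trend, on log2(signal + 2.37), the pseudocount being the 10th percentile of all values. Each line was set against the other 4 averaged, p-values were adjusted by Benjamini-Hochberg over all 22746 probe sets, and calls were made at 0.05. A fold written with "at least" is given only where all arrays of the line were under the background of 14.8, as the geometric mean of the other 12 arrays over that background. For other genes with signals near background the fitted difference depends on the pseudocount. Values per array are given for the 12 deepest dips and, per line, for up to 6 genes with the largest gain and 4 with the largest loss among those called. The code was tested on simulated data. Alternatives were other folds, floors and averages in the rule, other pseudocounts, quantile normalization, no trend, leaving out dim probe sets, the replicate number or the spike-in class as a block, high-class arrays alone, all arrays in one fit, Columbia lines alone and each array left out. Leaving out both J3411 replicate 3 and SCR replicate 1 was chosen after seeing the data. Promoter motifs were not analysed here.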

Additional observations from a re-analysis of the deposited data

Results flagged for a closer look

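Of 39 groups of 4 arrays tested, made up of the 3 stages for the 12 genes with the deepest dip and for the median of all 67 genes, 5 had an array whose gap to its nearest neighbour passed the 95% limit of Dixon's test. Chance alone does this in about 1 group in 20. Stage II replicate 1 stood high in AT5G66390, at 37.3 with the other 3 arrays at 1.24 to 4.33, and in AT4G13580, at 57.0 with the others at 3.42 to 7.34. These are the genes with the endodermis-like distribution over the lines. Stage III replicate 4 stood high in AT5G58787, at 154 with the others at 109 to 111, stage III replicate 1 in AT5G35735, at 397 with the others at 92.6 to 121, and stage III replicate 2 in UGT76C2, at 72.7 with the others at 40.2 to 44.1.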

How the results depend on the processing

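The number of dipping genes depended on the rule: 168 at a fold of 1.5, 24 at a fold of 3, 125 at a level floor of 20 and 21 at a floor of 100. Medians gave 66 genes, of which 60 were shared with the 67, geometric means 59 and quantile normalization 52, all of them shared. Leaving out each stage array gave 62 to 97, the 97 without stage II replicate 1, and 37 of the 67 were kept each time.

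No call of a gene in a line reversed its direction under any alternative run, and 30 of 101 such calls held under all of them. Leaving out each line array gave 11 to 26 genes higher and 4 to 7 lower in J3411, 9 to 15 and 5 to 16 in SCR, 3 to 9 and 1 in WOL, 0 to 3 and 13 to 29 in GL2, and 2 to 4 and 2 to 10 in J0571. Genes above each other line numbered 0 to 12 in J3411, 0 to 6 in SCR and 1 in WOL. The GL2 count of 2 higher was 0 without GL2 replicate 1 and 1 without replicate 3.

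Blocking on the spike-in class, SCR had 3 higher, 1 lower and 0 above each other line, and WOL 3 higher. On high-class arrays alone SCR had 3 higher, 0 lower and 0 above each, WOL 3 higher and GL2 1 higher. Without both J3411 replicate 3 and SCR replicate 1, 14 genes in J3411 and 6 in SCR were above each other line, with 2 lower in WOL and 11 lower in J0571, while J3411 had 26 higher and GL2 31 lower. Genes above each other line in J3411 were 4 with the larger pseudocount, 4 after quantile normalization, 5 with the filter on dim probe sets, 0 with no trend, 6 with all 27 arrays and 4 on high-class arrays. With all 27 arrays 1 gene was higher in GL2. Among Columbia lines alone J0571 had 7 higher, 4 lower and 1 above each other line, WOL 2 lower and GL2 1 above each. For genes chosen on geometric means, J3411 had 3 lower, SCR 7 higher and J0571 1 higher. On medians of the line arrays, GL2 was highest in 2 genes and J0571 in 3. The cause was not tested for these shifts.

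The replicate numbers did not pair the line arrays: same-numbered arrays had correlations of -0.218 to 0.120 and 1 of 15 arrays was nearest its own number. With the replicate number as a block WOL had 5 genes higher, and the other lines 22 and 6 (J3411), 13 and 14 (SCR), 2 and 24 (GL2) and 3 and 6 (J0571) higher and lower. Signals near background limit the low side of each comparison.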

Other observations

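The value rule was also met by 59 probe sets to which the annotation assigns no gene and by 2 assigned to several genes, which are not among the 67. Among the marker lists described along the root, genes of dividing cells had summed signals of 1572 to 2235 at stage I, 1009.8 to 1272 at stage II and 395 to 488 at stage III, and the 5 root hair genes 408 to 670, 816 to 1266 and 3851 to 6255 in the same order. The sum of the cortex genes was 73.2 to 130 at stage I, 239.9 to 532 at stage II and 159 to 229.5 at stage III. Its peak at stage II lay in AT1G09750, with means of 18.7, 278 and 153 at stages I, II and III. JKD, at 51.7, 45.4 and 37.0, and AT1G62500, at 25.5, 12.5 and 12.5, were highest at stage I. The ER body genes had 2516 to 2788 at stage I, 2375 to 3162 at stage II and 1063 to 2551 at stage III. The quiescent centre gene AGL42 had 40.9 to 56.7, then 60.3 to 67.8, then 87.6 to 146. None of these lists had its stage II sums below those of both other stages.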
